A study of Mus musculus with 96 samples.

Results

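The Notch pathway genes described here are 33 genes listed by symbol, of 22422 genes held in the coding count table. They comprise 4 receptors, 5 canonical ligands, 2 ligand-like membrane proteins, 7 Hes and Hey repressors, 4 proteins of the nuclear complex, 3 Fringe enzymes, 5 proteases or protease subunits, and 3 genes for the Numb adaptors and the ubiquitin ligase Mib1. Each gene was represented by its coding transcript with the highest total count. Of the 33 members, 31 had enough counts to be tested in RNA and 32 in footprints. Hes3 was tested in footprints but not in RNA, and Aph1a in neither.

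The study profiled neural tubes of mouse embryos at E11.5, with 20 to 23 somites between tail and hind limb, by ribosome profiling (Ribo-seq) and RNA-seq. The mutant group was C3HeB/Eif3cXs-J/+, heterozygous for the Xs-J allele of Eif3c, and the wild-type group was C3HeB. Eif3c encodes a subunit of the initiation factor eIF3, and the series title puts the translation of signalling mRNAs at the centre of the comparison. Each group had 3 pools per assay. Per the labels' protocol, cells dissociated from the neural tubes of a litter were split between the assays, poly(A) RNA was taken for RNA-seq, and nuclei and mitochondria were spun out of the footprint lysates. The labels do not say whether each pool is a litter of its own. The p-values therefore speak only of the spread between pools, which may be technical. The coding sequences held 9573591 to 13109512 counts per mutant RNA library, against 7200317 to 13137404 counts per wild-type RNA library. The footprint libraries held 11310847 to 14842438 counts in the mutant, against 17278727 to 59202839 counts in wild type.

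Eif3c itself had 296, 290 and 302 CPM (counts relative to the TMM-scaled library total) of RNA in mutant pools 1 to 3, against 518, 497 and 474 CPM in wild-type pools 1 to 3. It was lower by 0.75 ± 0.06 on the log2 scale (SE, edgeR, adjusted p = 0.000615). Mutant pool 1 stood apart in both assays along the first principal component (18.7 in RNA and 23.3 in footprints, against -2.63 to 8.70 in the other mutant libraries and -11.3 to -6.30 in the wild-type libraries). Markers of the labelled tissue were abundant. The 11 progenitor markers, with Hes5 left out, summed to 4302 to 4913 CPM of RNA in mutant pools, against 4575 to 4894 CPM in wild-type pools. The 14 neuron markers summed to 5868 to 6678 CPM in mutant pools, against 7070 to 7387 CPM in wild-type pools. None of the marker genes was at 0 in any library, and RNA of blood and vessel cells was present as well. Erythroid markers summed to 6531 CPM of RNA in mutant pool 1 and 2891 to 3456 CPM in the other mutant pools, against 2774 to 3448 CPM in wild-type pools.

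Notch signalling passes between touching cells. A ligand of the Delta or Jagged family on the sending cell is taken up with the help of Mib1, which pulls on the receptor and exposes it to ADAM proteases and then to gamma-secretase. The freed intracellular domain enters the nucleus, joins the DNA-binding protein Rbpj and a Mastermind coactivator, and switches on Hes and Hey repressors. In the embryonic neural tube, newborn neurons present Dll1 and neighbouring progenitors respond through Notch1, with Hes1 and Hes5 holding back proneural genes. Fringe enzymes add sugars to the receptor that alter its choice of ligand, and Numb proteins oppose the receptor inside the cell.

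Start codons of the members with the most and the fewest footprints per mRNA in wild type are shown first, because these members lie at both ends of that ratio. Each line is the mRNA strand from 10 bases before the start codon to 3 bases after it, 5′ to 3′, with the start codon in capitals (GENCODE vM21, GRCm38). Dner, Heyl and Dlk1 had the highest ratios, and Maml3, Jag2 and Mfng the lowest. The start codons lie at chr1:84695726-84695728 on the minus strand (Dner), chr4:123233867-123233869 on the plus strand (Heyl), chr12:109453660-109453662 on the plus strand (Dlk1), chr3:52104141-52104143 on the minus strand (Maml3), chr12:112929482-112929484 on the minus strand (Jag2) and chr15:78773270-78773272 on the minus strand (Mfng).
Dner: tccgctcgctATGcct
Heyl: agctttcggcATGaag
Dlk1: ccgccccgagATGatc
Maml3: cgggagcaggATGggg
Jag2: cgaggcggcgATGcgg
Mfng: cctgctaccaATGcac

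In 5 of these 6 windows the third base before the start codon is a purine, the base most often found there. Mfng has a pyrimidine, and Maml1, Rfng and Numbl are the others with one among the 30 members examined. Mib1, Notch3 and Numb were not examined. A purine stood there in 26 of the 30 members (86.7%), against 84.4% of 18803 genes. A G directly after the start codon was found in 11 of the 30 members (36.7%), against 49.7% of genes. These matches describe the sequence only.

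An ATG upstream of the start codon was found in 18 of the 31 members with an annotated 5′ UTR and a sequence (58.1%), against 49.6% of 19125 genes. Heyl, Numbl and Notch2 each have a single upstream ATG, which opens a frame that runs out of frame over the annotated start codon. So does the upstream ATG of Hes3 that lies 32 bases before its start codon. Mib1 also has an upstream ATG, whose frame was not examined. The Notch2 frame has 47 codons and starts 31 bases before the start codon. The Heyl frame has 83 codons and starts 208 bases before the start codon, and the Numbl frame has 76 codons and starts 187 bases before it. The single upstream frame of Mfng has 20 codons and ends before the start codon. Windows around the upstream ATGs of Heyl, Numbl and Mfng, in capitals, are given for comparison with the values of 5′ UTR footprints.
Heyl upstream: ccagcggccgATGggg
Numbl upstream: cgagggagggATGctc
Mfng upstream: tgtgcccccgATGcct

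Levels between genes were compared as CPM per kilobase (kb) of counted coding sequence. In wild-type RNA, Hes5 and Hes6 were highest, at 287 ± 25.4 and 263 ± 4.37 CPM per kb (SD, n = 3), and their means differed by less than the SD of Hes5. Hes5 carries the response to Notch in progenitors, while Hes6 is known as an antagonist of Hes1 that favours neuronal differentiation. Dlk1, Mib1, Dll3, Dll1, Notch1 and Adam10 followed, between 107 and 155 CPM per kb. Mib1 (131 ± 0.876), Dll3 (128 ± 8.71) and Dll1 (122 ± 5.35) lay within about an SD of their neighbours, as did Notch1 (113 ± 8.14) and Adam10 (107 ± 1.99). Ncstn came next at 86.5 ± 4.19, and Dner, Numbl and Hes1 lay close together between 66.6 and 69.6 CPM per kb. In all, 19 of 33 members reached 30 CPM per kb. Notch4, Dll4, Psen2, Rbpj, Hey2, Hes3 and Aph1a were under 8 CPM per kb. Notch4 and Dll4 are best known from blood vessels, whose 15 markers summed to 445.1 to 742.5 CPM of RNA in mutant pools, against 455.3 to 525.6 CPM in wild-type pools.

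**Figure D1:**
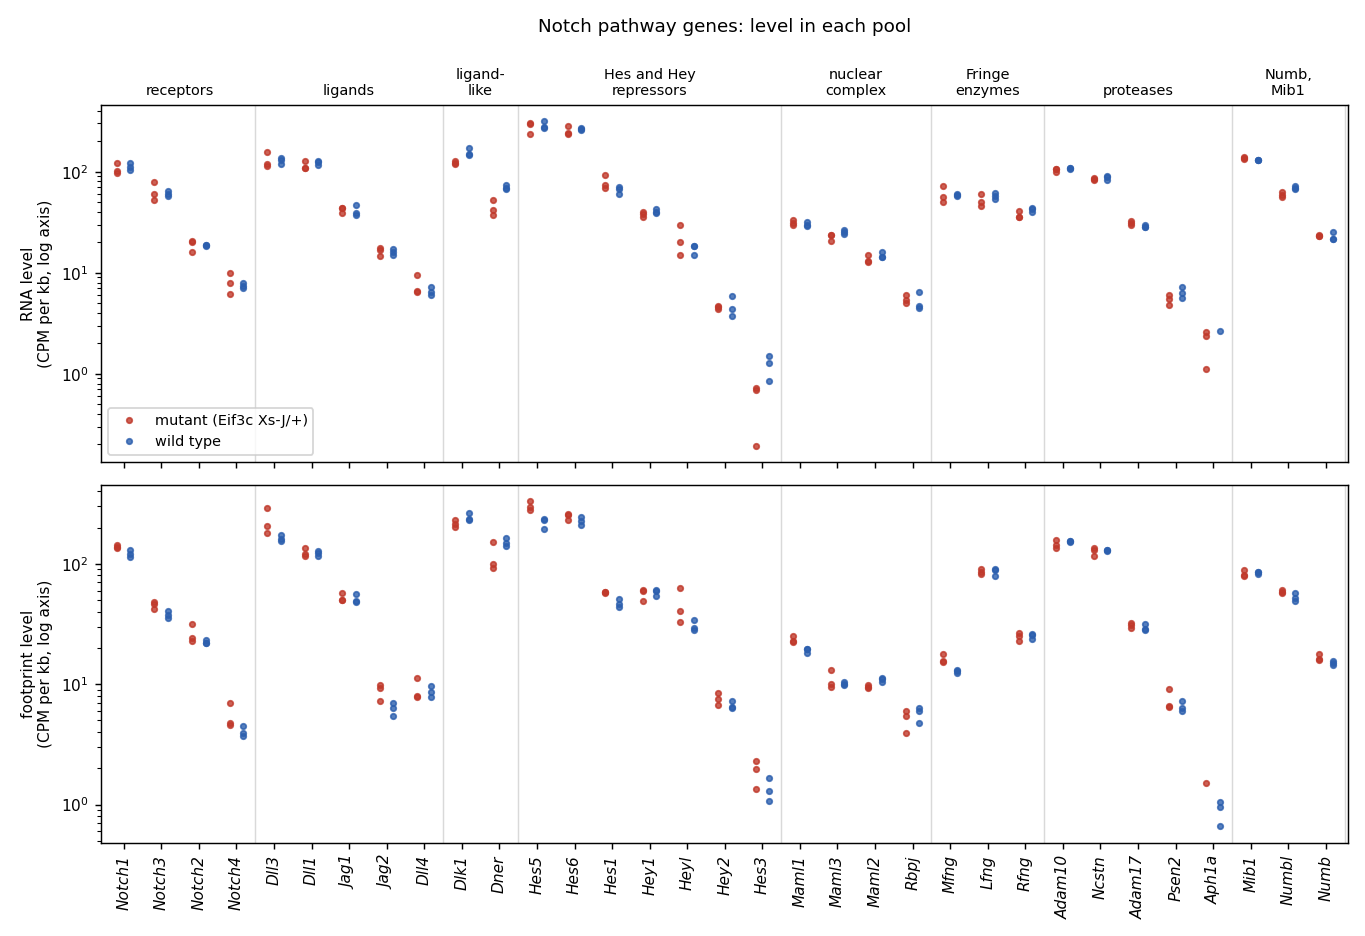
RNA (top) and footprint (bottom) level of each of the 33 members in CPM per kb on log axes, grouped by role, with mutant pools left of wild-type pools and a point per pool. Libraries at 0 (Aph1a) are not drawn. Hes5 and Hes6 were highest in wild-type RNA, and most mutant and wild-type points of a gene lie close together compared with the range between genes.

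In RNA, 1 of 31 members changed: Dner fell, and none rose. Across all genes tested, 0.388% passed the same edgeR threshold (adjusted p under 0.05). The median log2 change was -0.00 over the members and 0.01 over all 13406 genes. At an unadjusted p under 0.05 there were 3 members, all lower in the mutant, namely Dner, Dlk1 and Numbl, against 17.5% of all genes. Without mutant pool 2 the edgeR test called 3 members and 11.2% of all genes.

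Dner, a transmembrane protein of neurons with Delta-like EGF repeats that acts as a ligand outside the canonical family, lies on chromosome 1 and was counted over 2154 coding bases. It had 80.7, 114 and 89.2 CPM of RNA in mutant pools 1 to 3, against 148, 144 and 158 CPM in wild-type pools 1 to 3. Every mutant pool was below every wild-type pool, which was so for 11.0% of all genes tested. The log2 change was -0.67 ± 0.11 (SE, edgeR, adjusted p = 0.0365). The call was lost with offsets for coding GC content (adjusted p = 0.109) and without mutant pool 3 or any of the wild-type pools (adjusted p = 0.176 to 0.25), with log2 changes of -0.63 to -0.70. Of the 14 neuron markers, 13 were lower in mutant RNA, as were 6278 of all 13406 genes tested. None of these markers passed in edgeR. Of them, 9 had an unadjusted p under 0.05 (17.5% of all genes) and 4 were called by DESeq2 (2.94% of all genes). Their part in the result was not tested, and in bulk samples fewer cells of a type and less RNA per cell cannot be told apart.

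Footprints of Dner numbered 213, 327 and 197 CPM in mutant pools, against 301, 321 and 349 CPM in wild-type pools. The groups overlapped because of mutant pool 2. The log2 change was -0.40 ± 0.17 (edgeR, adjusted p = 0.198), and a single pool moved it. Leaving out mutant pool 2 gave -0.67 (adjusted p = 0.00368), where 17.1% of all genes passed, and leaving out mutant pool 3 gave -0.26 (adjusted p = 0.394).

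Dlk1, the other ligand-like member, lacks the receptor-binding DSL domain of true ligands and is known as an inhibitor of Notch and an imprinted gene. Its RNA stood at 132, 139 and 130 CPM in mutant pools, against 186, 164 and 162 CPM in wild-type pools. All 3 mutant pools were lower. The log2 change of -0.35 ± 0.07 missed the threshold (edgeR, adjusted p = 0.0564). Dlk1 passed in 4 of 14 alternatives, namely DESeq2 (adjusted p = 0.00389) and, in edgeR, the replicate block (adjusted p = 0.0431), no filter on low counts (adjusted p = 0.013) and leaving out mutant pool 2 (adjusted p = 0.00562). Dlk1 footprints gave 255, 234 and 223 CPM in mutant pools, against 292, 258 and 253 CPM in wild-type pools, which overlap. Their log2 change was -0.17 ± 0.08 (edgeR, adjusted p = 0.242).

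**Figure D2:**
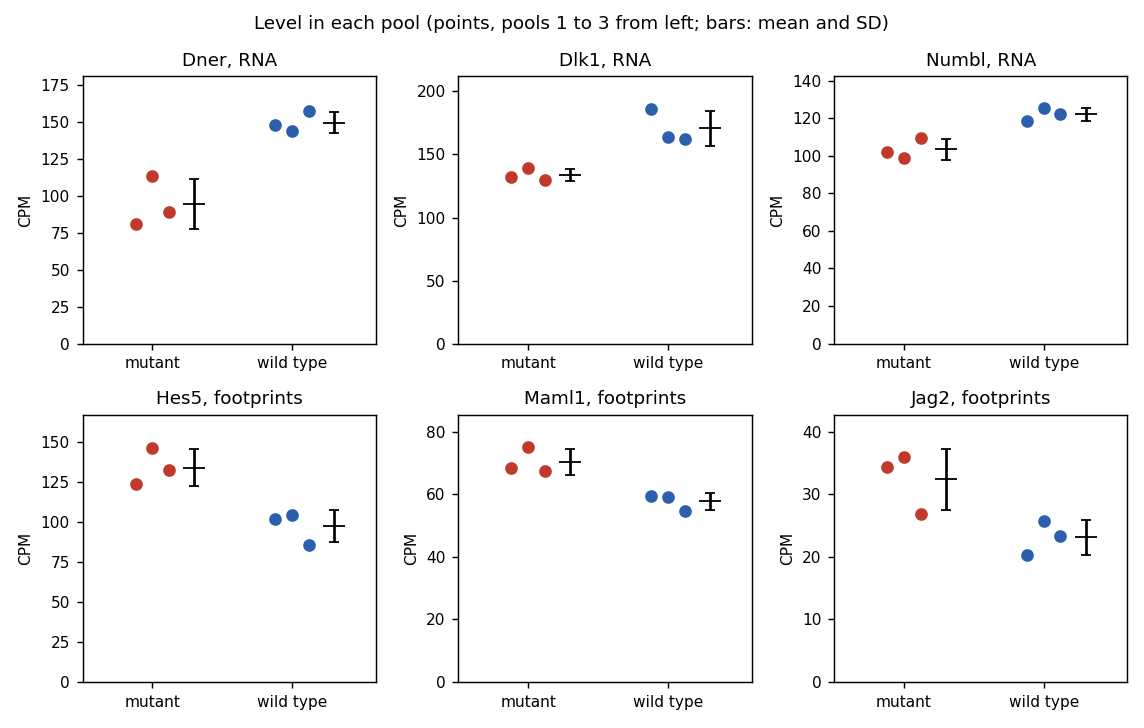
Level in CPM in each mutant pool (left) and wild-type pool (right) for the RNA of Dner, Dlk1 and Numbl (top) and the footprints of Hes5, Maml1 and Jag2 (bottom). Points are pools 1 to 3 from the left, and bars give the mean and SD. In all 6 panels the groups do not overlap, while only the RNA of Dner passed the threshold.

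Footprints of the coding sequence gave no call among the 32 members tested, against 0.253% of all genes. At an unadjusted p under 0.05 there were 12 members, 10 of them higher in the mutant, against 22.8% of all genes, with 11.7% higher. DESeq2 called 4, namely Hes5, Jag2, Maml1 and Notch3, and 6.11% of all genes. Without mutant pool 2 the edgeR test called 4 members and 17.1% of all genes. The median log2 change was 0.14 over the members and 0.01 over all 13423 genes tested, and 23 of 32 members had a positive change, against 52.4% of genes. Members had a median coding GC content of 58.8%, against 53.1% for genes tested in footprints, and with GC offsets the members' median was 0.05. Without mutant pool 1 it was 0.08. Markers of other cell types varied between the footprint pools. The 10 mesenchyme markers summed to 1966, 1355 and 1243 CPM of footprints in mutant pools, against 1083, 1087 and 1261 CPM in wild-type pools, with 9 of 10 positive and 2 called by DESeq2. The 12 erythroid markers summed to 14250, 8814 and 8095 CPM of footprints in mutant pools, against 8690, 8969 and 9900 CPM in wild-type pools. Mutant pool 1 was the highest in both lists, and their part in the members' values was not tested.

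In 10 members every mutant footprint pool was above every wild-type pool, namely Notch1, Notch3, Notch4, Dll3, Jag2, Hes1, Hes5, Maml1, Mfng and Numb. The same held for 14.4% of all genes. Maml2 alone had every mutant pool below, which was so for 14.8% of genes.

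Among the receptors, Notch1 was the highest in RNA per length and Notch3, which marks neural progenitors and the muscle cells of vessels, had the smallest p in footprints. Notch1 RNA was 768, 724 and 912 CPM in mutant pools, against 790, 913 and 846 CPM in wild-type pools, so the groups overlapped (log2 change -0.09 ± 0.09, edgeR, adjusted p = 0.671, and -0.20 to -0.02 when a pool was left out). Its footprints numbered 1085, 1045 and 1022 CPM in mutant pools, against 917, 988 and 851 CPM in wild-type pools. The mutant was higher in each pool, with a log2 change of 0.19 ± 0.08 (edgeR, adjusted p = 0.175), which was 0.09 with GC offsets (adjusted p = 0.486). Notch3 footprints were 291, 335 and 321 CPM in mutant pools and 258, 281 and 246 CPM in wild-type pools (log2 change 0.27 ± 0.08, edgeR, adjusted p = 0.117). The gap between the groups was small, since mutant pool 1 lay just above wild-type pool 2. Notch3 RNA overlapped between the groups, at 411, 364 and 543 CPM in mutant pools and 415, 445 and 397 CPM in wild-type pools.

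All 4 receptors had a positive footprint change, none of which passed. Notch4 changed by 0.43 ± 0.16 with a peak of 40.6 CPM in mutant pool 1, by 0.22 without that pool and by 0.26 with GC offsets (edgeR, adjusted p = 0.156, 0.283 and 0.317). Endothelial markers were also highest there: their summed footprints reached 1016 CPM in mutant pool 1, 565.1 CPM in pool 2 and 630.4 CPM in pool 3 of the mutant, against 602.4 to 710.5 CPM in wild-type pools. Their part in the Notch4 values was not tested. Notch2 changed by 0.23 ± 0.11 in footprints (edgeR, adjusted p = 0.258).

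Of the 5 ligands, Dll3 and Jag2 showed the largest positive footprint changes, and Dll1, Dll4 and Jag1 stayed within 0.05 of 0 on the log2 scale. Dll3, which acts within the sending cell and does not activate Notch in neighbours, was the ligand highest in RNA per length. Dll3 RNA was 263, 191 and 202 CPM in mutant pools, against 201, 230 and 222 CPM in wild-type pools, overlapping between the groups. Dll3 footprints were 492, 350 and 306 CPM in mutant pools, against 262, 296 and 272 CPM in wild-type pools. Every mutant pool was higher and pool 1 far so. The log2 change was 0.47 ± 0.15 (edgeR, adjusted p = 0.131), and it was 0.25 without mutant pool 1 and 0.22 with GC offsets.

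Jag2, a Jagged ligand, had 34.4, 36 and 26.8 CPM of footprints in mutant pools, against 20.3, 25.8 and 23.3 CPM in wild-type pools. Mutant pool 3 was 1 CPM above wild-type pool 2. The log2 change was 0.49 ± 0.13 (edgeR, adjusted p = 0.102), and 0.32 with the replicate block and GC offsets together. Jag2 RNA did not follow: it was 64.4, 54.3 and 61.5 CPM in mutant pools and 55.6, 63.8 and 59.5 CPM in wild-type pools, with a log2 change of 0.01 ± 0.09 (edgeR, adjusted p = 0.972). Dll4, the vessel ligand with the smallest RNA p in this group, had 19, 13.2 and 12.9 CPM of RNA in mutant pools, against 12.1, 12.8 and 14.5 CPM in wild-type pools. Only mutant pool 1 exceeded all wild-type pools. Its log2 change of 0.21 ± 0.16 (edgeR, adjusted p = 0.529) became -0.0004 without that pool.

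Among the repressors that Notch switches on, Hes5 on chromosome 4 had the smallest p of all members in footprints. Hes5 footprints were 124, 146 and 132 CPM in mutant pools, against 102, 104 and 86 CPM in wild-type pools. All mutant pools were higher, with a log2 change of 0.46 ± 0.09, short of the threshold (edgeR, adjusted p = 0.0705). DESeq2 called it (adjusted p = 0.00228), as did edgeR without mutant pool 2 (adjusted p = 0.0245) and with no filter (adjusted p = 0.0404), and with GC offsets the log2 change was 0.22 (edgeR, adjusted p = 0.274). Hes5 RNA stood at 105, 134 and 131 CPM in mutant pools and 120, 140 and 122 CPM in wild-type pools, with a log2 change of -0.06 ± 0.10 (edgeR, adjusted p = 0.813). RNA of the groups overlapped while footprints did not.

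Hes1, the other main progenitor repressor, was 57.9, 72.8 and 54.2 CPM in mutant RNA, against 53.4, 56.2 and 48 CPM in wild-type RNA, and the groups overlapped. Its footprints were 46, 45 and 46.4 CPM in mutant pools, against 40.4, 36.9 and 34.9 CPM in wild-type pools, higher in every mutant pool. Neither difference passed: the log2 changes were 0.22 ± 0.11 in RNA and 0.29 ± 0.08 in footprints (edgeR, adjusted p = 0.314 and 0.11). The RNA change was 0.08 without mutant pool 2. The footprint change was 0.12 with GC offsets, and it passed without mutant pool 2 (log2 change 0.30, edgeR, adjusted p = 0.0456). Heyl, a target of Notch in vessels and neural progenitors, had 58.1, 30.1 and 37.4 CPM of footprints in mutant pools, against 26.2, 27.1 and 31.4 CPM in wild-type pools. The groups overlapped, and mutant pool 1 was the highest. The log2 change of 0.57 ± 0.20 (edgeR, adjusted p = 0.155) was 0.26 without mutant pool 1. Leaving out pool 2 of the mutant instead gave 0.74 (adjusted p = 0.0203). Hes6, Hey1 and Hey2 changed by -0.04 to 0.18 in footprints, and Hes3, an early neuroepithelial repressor, had under 2 CPM in every library.

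The genes that Hes proteins hold back were read from a list of 8 proneural factors. None passed in either assay in edgeR. At an unadjusted p under 0.05 there were 2 in RNA (17.5% of all genes) and 4 in footprints (22.8% of all genes). DESeq2 called 1 in RNA (2.94% of all genes) and 2 in footprints (6.11% of all genes). In both assays 7 of the 8 had a positive change, against 53.2% of all genes in RNA and 52.4% in footprints. The 8 factors summed to 795.9, 603.6 and 639.5 CPM of footprints in mutant pools, against 556.9, 571.4 and 553.3 CPM in wild-type pools. In RNA they summed to 361.1 to 495.5 CPM in mutant pools, against 318 to 399.4 CPM in wild-type pools.

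In the nuclear complex, Maml1 was the highest per length and had the smallest footprint p. Maml1, a Mastermind coactivator, had 68.5, 75.3 and 67.4 CPM of footprints in mutant pools, against 59.4, 59.2 and 54.6 CPM in wild-type pools. It was higher in all mutant pools (log2 change 0.29 ± 0.08, edgeR, adjusted p = 0.101). The log2 change was 0.16 with GC offsets. Maml1 RNA overlapped, at 101, 92.5 and 88.7 CPM in mutant pools and 87.6, 95.6 and 88.8 CPM in wild-type pools. Maml3, a further Mastermind protein, had the smallest RNA p of this group, with 78.5, 79.8 and 69.2 CPM in mutant pools, against 83.9, 89.6 and 80.6 CPM in wild-type pools. All 3 mutant pools were lower by a narrow margin (log2 change -0.16 ± 0.08, edgeR, adjusted p = 0.301, and -0.11 without mutant pool 3). Maml2 had 32.8, 34 and 31.8 CPM of footprints in mutant pools, against 38.1, 35.7 and 38.9 CPM in wild-type pools (log2 change -0.20 ± 0.08, edgeR, adjusted p = 0.181).

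Rbpj, the DNA-binding partner of every Notch receptor, could hardly be measured in its coding sequence. Over the 6 RNA libraries it had 499 coding counts and 5548 counts in its 3′ UTR. Its RNA density in the coding sequence was 0.221 of that in the 3′ UTR, while the median of 11163 genes was 1.11 and the fifth percentile 0.791. The coding changes of Rbpj, 0.07 ± 0.18 in RNA and -0.16 ± 0.18 in footprints (edgeR, adjusted p = 0.886 and 0.596), rest on these few counts.

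The Fringe enzymes showed no call. Mfng, the Fringe enzyme highest per length in RNA, had 16.2, 14.2 and 13.7 CPM of footprints in mutant pools, against 11.9, 11.6 and 11.2 CPM in wild-type pools. The mutant was higher in all pools, with a log2 change of 0.35 ± 0.11 (edgeR, adjusted p = 0.132). Mfng RNA was 65.8, 45.3 and 50.8 CPM in mutant pools and 52, 54.7 and 53.8 CPM in wild-type pools, and these overlapped. Rfng RNA was 33.4, 33.5 and 38.8 CPM in mutant pools and 41.2, 39.9 and 37.1 CPM in wild-type pools, overlapping by mutant pool 3 (log2 change -0.17 ± 0.09, edgeR, adjusted p = 0.376). Lfng, the Fringe gene best known in the neural tube and somites, had a footprint change of 0.002 ± 0.07 on the log2 scale.

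Among the proteases, no member had an unadjusted p under 0.05 in either assay. Adam10, the main protease of the first receptor cut, had 234, 233 and 217 CPM of RNA in mutant pools and 236, 230 and 239 CPM in wild-type pools. Its footprints were 295, 343 and 312 CPM in mutant pools and 337, 336 and 335 CPM in wild-type pools (log2 change -0.09 ± 0.07, edgeR, adjusted p = 0.489, and 0.04 with GC offsets). Both sets overlapped, and the wild-type pools agreed within 2 CPM of footprints. Adam17, a related protease, had 74.9, 72 and 78.6 CPM of RNA in mutant pools and 72.2, 69.4 and 69.4 CPM in wild-type pools, which overlap narrowly (log2 change 0.10 ± 0.07, edgeR, adjusted p = 0.494, and 0.06 with GC offsets). Ncstn, the gamma-secretase subunit that binds the receptor, changed by -0.04 ± 0.06 in RNA and -0.01 ± 0.07 in footprints, and Psen2, a catalytic subunit, changed by -0.24 ± 0.17 in RNA and 0.18 ± 0.16 in footprints on the log2 scale. Aph1a, another subunit, was represented by a transcript with 88 counted coding bases and under 1 CPM in every library.

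Of the Numb adaptors and Mib1, Numbl had the smallest p in both assays. Numbl RNA was 102, 98.6 and 109 CPM in mutant pools, against 118, 126 and 122 CPM in wild-type pools. All mutant pools were lower, and the log2 change of -0.24 ± 0.06 missed the threshold (edgeR, adjusted p = 0.0937). Its footprints leaned the other way, at 106, 102 and 101 CPM in mutant pools, against 86.4, 90.5 and 101 CPM in wild-type pools. They overlapped at wild-type pool 3, and their log2 change of 0.15 ± 0.08 (edgeR, adjusted p = 0.276) became -0.04 with GC offsets. Mib1 RNA was 410, 402 and 394 CPM in mutant pools, against 388, 391 and 386 CPM in wild-type pools. It was the only member with all mutant RNA pools above wild type, which was so for 11.2% of all genes, and its log2 change was 0.05 ± 0.06 (edgeR, adjusted p = 0.686). Numb changed by 0.02 ± 0.09 in RNA and 0.15 ± 0.08 in footprints.

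**Figure D3:**
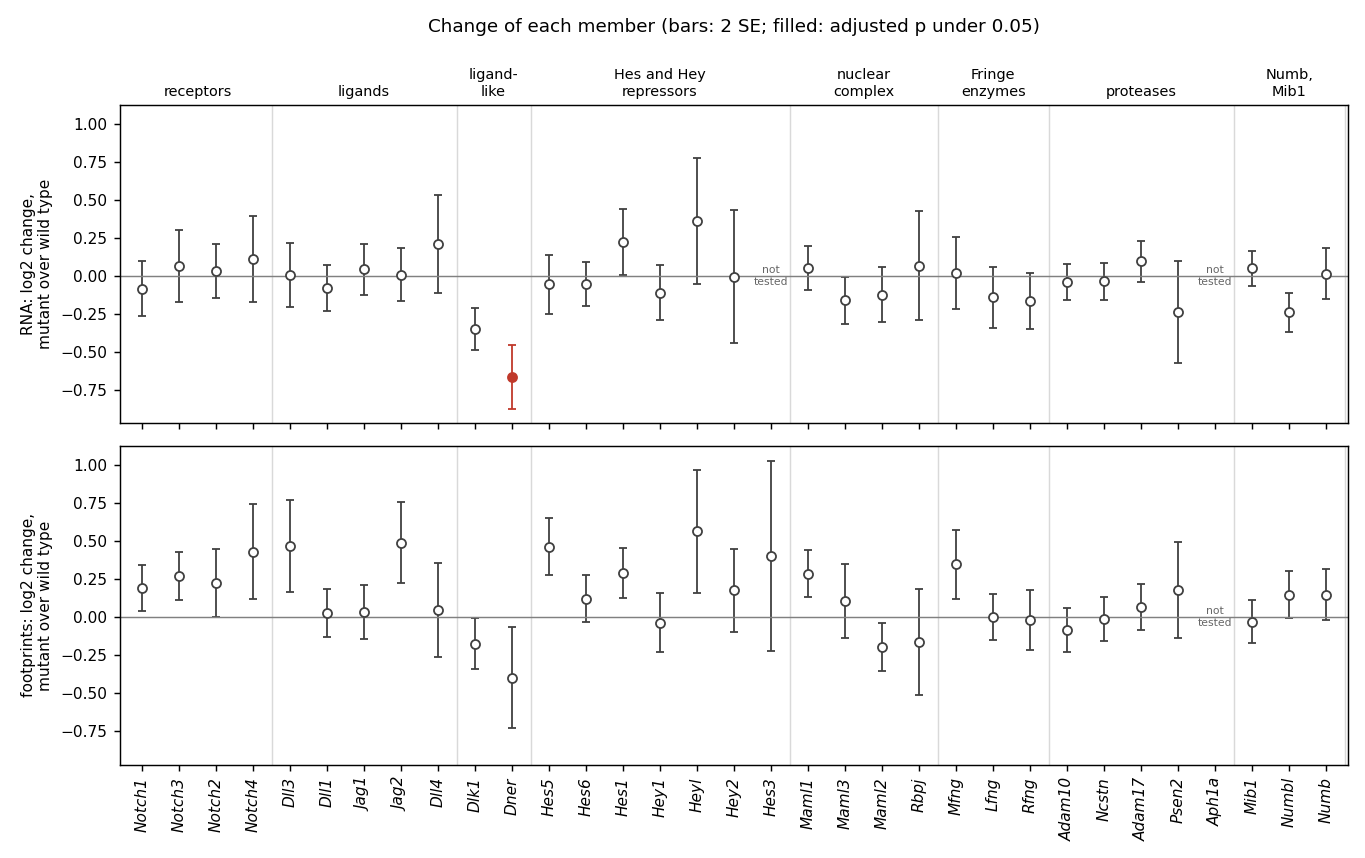
Log2 change, mutant over wild type, in RNA (top) and footprints (bottom) for each member by role, with bars of 2 SE and filled points for an adjusted p under 0.05. Dner RNA is the only filled point, and more points lie above 0 in footprints (23 of 32) than in RNA (15 of 31).

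Translational efficiency, the change in footprints not matched by RNA, was tested as the interaction of genotype and assay. No member passed among 32 tested, and 0% of the 13877 genes did (edgeR, in a fit that did not pair the assays by pool). At an unadjusted p under 0.05 there were 7 members, all with a positive change, against 9.84% of all genes, with 5.77% positive. The 7 include Hes3, which had only 28 RNA coding counts over the 6 RNA libraries. DESeq2 called no member and 0.144% of all genes. The change was positive in 26 of 32 members, against 53.9% of all genes. It was so in all 4 receptors and all 7 Hes and Hey genes. The nuclear complex and the proteases each had 2 positive and 2 negative changes. The median log2 change was 0.19 over the members and 0.02 over all genes, and with GC offsets the members' median was 0.12.

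RNA and footprints of a pool come from the same cells, and with the pool as a block 3 members passed, against 0.814% of all genes. They were Hes5, Dll3 and Numbl, and all 3 rose. Hes5 changed by 0.53 ± 0.09 (edgeR with a replicate block, adjusted p = 0.0204), Dll3 by 0.46 ± 0.09 (adjusted p = 0.0343) and Numbl by 0.41 ± 0.09 (adjusted p = 0.0433). With the block and GC offsets together the log2 changes were 0.26, 0.19 and 0.18 and none passed.

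The ratio of footprints to RNA in each pool shows these members. For Hes5 its log2 was 0.24, 0.13 and 0.01 in mutant pools, against -0.23, -0.42 and -0.51 in wild-type pools. For Dll3 it was 0.90, 0.87 and 0.60 in mutant pools, against 0.38, 0.36 and 0.29 in wild-type pools. For Numbl it was 0.05, 0.04 and -0.11 in mutant pools, against -0.45, -0.47 and -0.27 in wild-type pools. None of the 3 overlapped between the groups. In 12 of 32 members every mutant pool was above every wild-type pool, which was so for 10.6% of all genes, and in no member was it below, which was so for 12.3% of genes. The 12 include Hes3, whose RNA was under 1 CPM in every library.

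Footprints per mRNA in wild type are relative to the scaled totals of each assay. By this measure 12 members had more footprints than RNA and 13 had fewer (edgeR, adjusted p under 0.05), while 35.5% of all genes had more and 36.3% fewer. The members' median log2 ratio was 0.12, against 0.01 for all genes. The members' shares on both sides were near those of the whole table.

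Dner stood highest, with a log2 ratio of 1.21 ± 0.16, at the 97.6th percentile of all genes. Wild-type Dner had 301, 321 and 349 CPM of footprints and 148, 144 and 158 CPM of RNA. Heyl followed at 0.94 ± 0.24, with 26.2, 27.1 and 31.4 CPM of footprints and 16.9, 13.8 and 17 CPM of RNA. Dlk1 came next at 0.75 ± 0.08. Both ligand-like members were thus among the 3 highest.

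Mfng stood lowest, at -2.12 ± 0.12 and the 4.5th percentile, with 11.9, 11.6 and 11.2 CPM of footprints and 52, 54.7 and 53.8 CPM of RNA in wild-type pools. Every footprint value lay far below every RNA value. Jag2 followed at -1.28 ± 0.12 with 20.3, 25.8 and 23.3 CPM of footprints and 55.6, 63.8 and 59.5 CPM of RNA. Maml3 was at -1.23 ± 0.10 with 33, 35.2 and 33.7 CPM of footprints and 83.9, 89.6 and 80.6 CPM of RNA. The 3 Fringe enzymes were split, with Mfng and Rfng (-0.65 ± 0.09) on the low side and Lfng (0.67 ± 0.09) on the high side. Numb, Numbl and Mib1 were all low, at -0.51, -0.30 and -0.54, and so were Maml1 and Maml2.

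**Figure D4:**
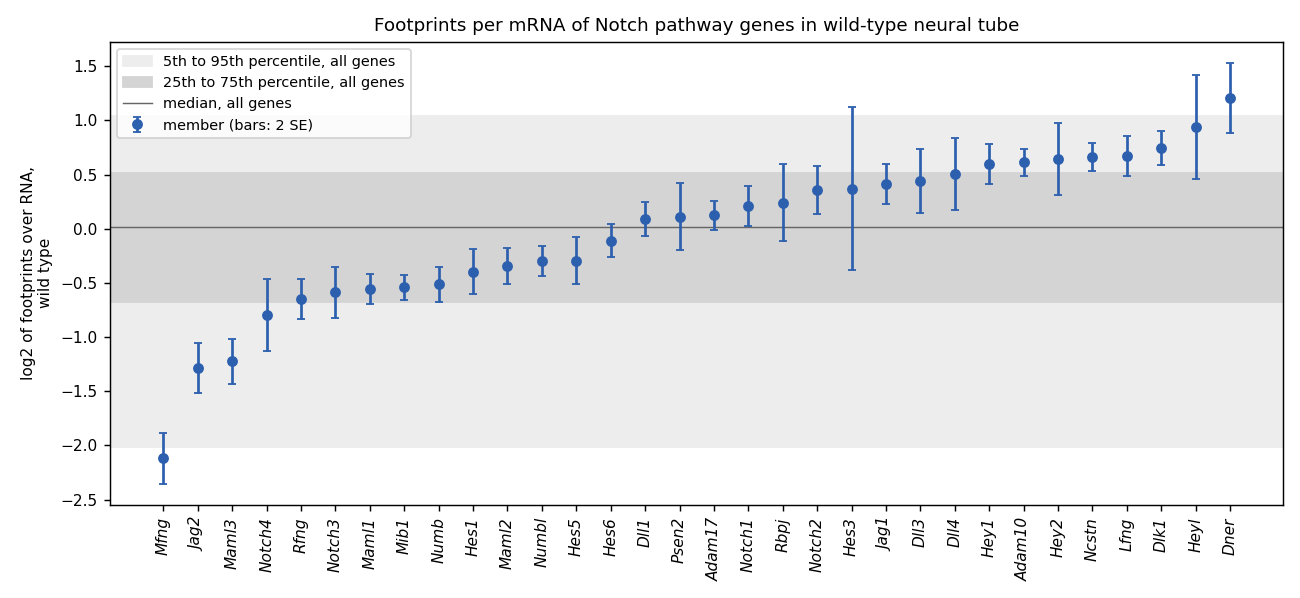
Log2 of footprints over RNA in wild type for the 32 members tested, from lowest to highest, with bars of 2 SE. Grey bands show the middle 50% and 90% of all 13877 genes. Mfng lies under the lower band edge of -2.02 and Dner above the upper edge of 1.04.

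Footprints in the 5′ UTR were set against those in the counted coding sequence of the same mRNA, which leaves out codons at both ends. Over all genes tested, there were 20.8, 17.2 and 20.1 such footprints per 100 coding footprints in mutant pools, against 16.9, 16.8 and 16.7 in wild-type pools. Among the 28 members tested, 2 passed, both with a higher ratio in the mutant (Heyl and Mib1), while 9.00% of all genes passed. The members' share was no higher than that of all genes. Of all genes, 972 passed with a higher ratio in the mutant and 33 with a lower ratio. The change was positive in 20 of 28 members and in 74.7% of all genes. The median log2 change was 0.12 over the members and 0.22 over all 11164 genes. A single pool moved the members' median, to 0.02 without mutant pool 1, 0.26 without mutant pool 2, 0.06 without mutant pool 3 and 0.08 without wild-type pool 2. Without mutant pool 2, 10 of 28 members and 27.7% of all genes passed.

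Heyl had 13.8, 17.7 and 20 footprints in its 5′ UTR per 100 coding footprints in mutant pools, against 8.37, 9.01 and 11.3 in wild-type pools. The log2 change was 0.83 ± 0.20 (edgeR, adjusted p = 0.0236), at the 94.2nd percentile of all genes. Counts were small, at 65 to 112 in mutant pools and 42 to 129 in wild-type pools. The call was lost without mutant pool 3 or any of the wild-type pools (adjusted p = 0.06 to 0.178). In wild type, the parts of Heyl summed to 323 footprints more than the whole transcript, which counts those over a boundary, against 287 counted in its 5′ UTR. Footprints over the start codon and those wholly in the 5′ UTR therefore cannot be told apart here. The frame that opens at its upstream ATG runs over that start codon.

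Mib1 had 43.4, 34.6 and 35.1 footprints in its 5′ UTR per 100 coding footprints in mutant pools, against 26.3, 26.9 and 26.3 in wild-type pools. Its log2 change was 0.50 ± 0.14 (edgeR, adjusted p = 0.0441), at the 79.2nd percentile of all genes. The call was lost under a replicate block (adjusted p = 0.099) and without mutant pool 1 or 3 or any of the wild-type pools (adjusted p = 0.0983 to 0.204). Here 390 wild-type footprints were counted in several parts, against 7098 in the 5′ UTR of 757 bases, so most lay wholly inside it. Notch3, next by p, had 3.43, 2.83 and 3.84 in mutant pools, against 2.09, 2.09 and 2.69 in wild-type pools (log2 change 0.56 ± 0.18, edgeR, adjusted p = 0.0618, and 0.00586 without mutant pool 2).

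**Figure D5:**
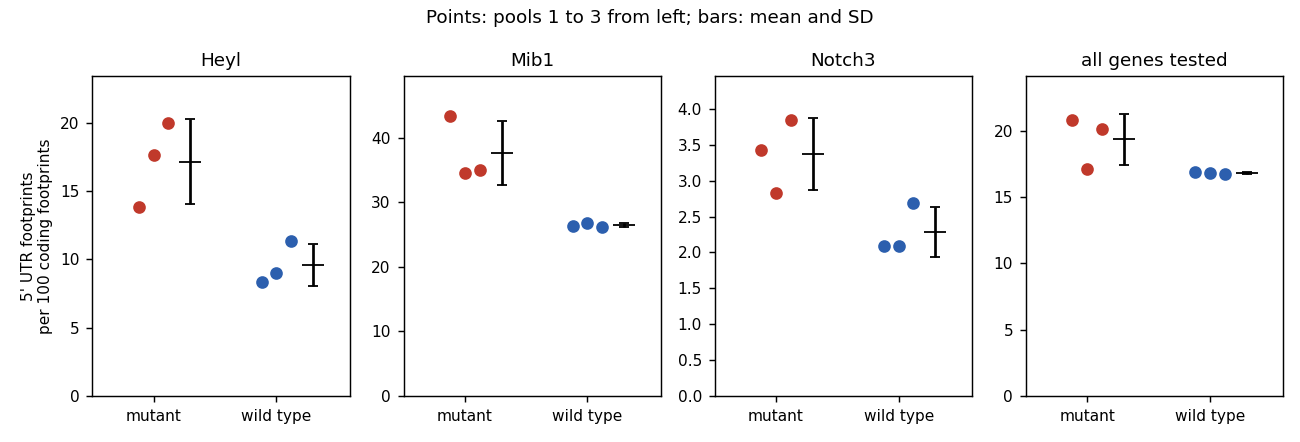
Footprints in the 5′ UTR per 100 coding footprints for Heyl, Mib1, Notch3 and all genes tested, in mutant pools (left) and wild-type pools (right). Points are pools 1 to 3 from the left, and bars give the mean and SD. Mutant pools lie above wild-type pools in each panel, also in that of all genes tested.

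Across members the 5′ UTR load in wild type differed widely. Per base, Hes5 had 8.2 times as many footprints in its 73-base 5′ UTR as in its counted coding sequence. Hes1 had 3.54 times and Mfng 3.18 times as many, against a median of 1.21 over 10655 genes. The counted part leaves out codons at both ends. For Hes5 it held 10600 wild-type footprints, against 19984 in the whole coding sequence, so the coding values of Hes5 rest on that part. In Hes5, 8720 wild-type footprints were counted in several parts, against 14295 counted in its 5′ UTR, and those over the start codon cannot be told apart from those wholly upstream. In Mfng only 99 were, against 898 in the 5′ UTR, which includes its upstream frame of 20 codons. The Mfng 5′ UTR held 109, 79.8 and 111 footprints per 100 coding footprints in mutant pools, against 64.5, 81.9 and 78 in wild-type pools, which overlap. For Numbl these values were 12.5, 11.9 and 12.5 in mutant pools, against 12.1, 11.4 and 10.1 in wild-type pools. They overlapped too (log2 change 0.14 ± 0.16, edgeR, adjusted p = 0.614). Dll3, Dlk1, Heyl and Dner were at the other end, with 0.203 to 0.288 times the coding density. Dll3 was lowest, and 6 upstream ATGs were found in its 5′ UTR. Footprints counted in several parts were many here too. In wild type they numbered 1118 for Dll3, 1957 for Dlk1 and 886 for Dner, against 1728, 3598 and 2285 counted in the 5′ UTR.

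Beyond the 33 members, 43 further genes of the pathway were listed, among them Deltex ligases, Notch glycosyltransferases, co-repressors, acetyltransferases and secreted regulators. In RNA none of 39 tested passed (edgeR), with 6 at an unadjusted p under 0.05 (17.5% of all genes) and none called by DESeq2 (2.94% of all genes). In footprints none of 40 passed, with 8 at an unadjusted p under 0.05 (22.8% of all genes) and 2 called by DESeq2, Egfl7 and Nle1 (6.11% of all genes). These shares were no higher than those over all genes. In efficiency none of 40 passed. Of them, 3 had an unadjusted p under 0.05 (9.84% of all genes) and none was called by DESeq2 (0.144% of all genes). The median log2 changes were -0.04 in RNA, 0.04 in footprints and 0.10 in efficiency.

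Egfl7, a protein secreted by vessel cells that can bind Notch, had the smallest p of these genes in footprints and is also on the list of endothelial markers. Its footprints stood at 10.3, 8.84 and 7.07 CPM in mutant pools, against 4.33, 4.76 and 3.65 CPM in wild-type pools. The groups did not overlap, with a log2 change of 1.04 ± 0.17 (edgeR, adjusted p = 0.0511). Egfl7 RNA was 48.8, 28 and 29.8 CPM in mutant pools, against 27.3, 26.9 and 29.2 CPM in wild-type pools, where only mutant pool 1 stood well above the rest. The part of vessel cells in these values was not tested.

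Nle1, a regulator of Notch first described in Drosophila and also a ribosome assembly factor, had 36.8, 30.5 and 29.1 CPM of footprints in mutant pools, against 22.7, 24.5 and 21.1 CPM in wild-type pools. All mutant pools were higher, with a log2 change of 0.50 ± 0.11 (edgeR, adjusted p = 0.0794). Its RNA was higher in all mutant pools too, with a log2 change of 0.32 ± 0.09 (edgeR, adjusted p = 0.107). Tle4, a Groucho co-repressor used by Hes proteins, was lower in all mutant pools in RNA, at 72.8, 81.2 and 74.6 CPM in mutant pools and 87.7, 91.5 and 92.9 CPM in wild-type pools (log2 change -0.25 ± 0.07, edgeR, adjusted p = 0.0975). Dtx1, a Deltex ubiquitin ligase, had 12.9, 19.9 and 15.6 CPM of RNA in mutant pools, against 22.4, 21.6 and 22 CPM in wild-type pools (log2 change -0.46 ± 0.14, edgeR, adjusted p = 0.13). In efficiency the smallest p belonged to Fbxw7, which marks the Notch intracellular domain for degradation, followed by Egfl7 and Spen, a co-repressor that binds Rbpj. Their log2 changes were -0.27, 0.70 and 0.58, and none passed.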

How the data were processed

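Ribo-seq and RNA-seq of 12 libraries, 3 mutant and 3 wild-type pools per assay, were read from a deposited table of whole-number counts per transcript part, made by the authors with cutadapt, STAR and bedtools on mm10, per the submitters' processing notes. Versions, and how reads of several transcripts were counted, are not given in the sources, and 65.7% of genes have several coding transcripts. The coding counts leave out codons at both ends. Whole 5′ UTR, coding and 3′ UTR counts summed to 104.2% of whole-transcript counts, so reads over a boundary are in both parts. The table holds 96 lanes (2 runs of 4 lanes per library). The first-run lanes of mutant footprint pool 1 (4 lanes) had counts on at most 3 of 20 chromosomes and were left out, and the others were summed. Counts without a gene (0.328%) stayed out. Transcript IDs were matched to GENCODE vM21 (GRCm38), 121271 of 122941 with their version and 1522 without it.

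Counts were tested with edgeR 4.0.16 in R 4.3.3 (quasi-likelihood test, TMM, filterByExpr with a minimum count of 10 and a minimum total of 15, Benjamini-Hochberg over all genes tested, threshold 0.05). CPM are TMM-scaled, and per-pool ratios of footprints over RNA have 0.5 CPM added to both. The 5′ UTR test needed 10 footprints on average. Alternatives were DESeq2 1.42.0, limma-voom 3.58.1, other size factors, no filter, offsets for coding GC content, the replicate block, another transcript, all lanes, and leaving out each pool. Deviations of RNA and footprints from their group means correlated in every pool (0.558, 0.677 and 0.169 in the mutant, 0.262, 0.265 and 0.344 in wild type), and the labels' protocol splits the same cells, so the pool pairs the assays. The tests were tested on simulated data.

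The members and gene lists were chosen with earlier results of these data known. All libraries are given for members that passed, the member of each role highest per length in RNA and those of smallest p in RNA and in footprints, the 3 highest and 3 lowest in footprints per mRNA, the 3 of smallest p in the 5′ UTR test, and the 3 of smallest p per test among the longer pathway list. Values of Notch4, Maml2 and other members given beyond this rule were chosen after they were seen.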

Additional observations from a re-analysis of the deposited data

Results flagged for a closer look

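Counts in the 3′ UTR, which no comparison used, stood out for 2 members because their RNA density there was far above that of the coding sequence. Rbpj had 5548 RNA counts in its 3′ UTR over the 6 RNA libraries, against 499 in its coding sequence. Per pool its 3′ UTR had 92.8, 98.6 and 80.9 CPM in the mutant, against 99.2, 75.1 and 101 CPM in wild type, and the groups overlapped. Notch4 had 812 RNA counts in its 3′ UTR, against 2832 in its coding sequence. Per pool its 3′ UTR had 15.6, 12.8 and 13.8 CPM in the mutant, against 10.8, 12.2 and 12.7 CPM in wild type. Mutant pool 2 and wild-type pool 3 were almost level, and the difference was not tested.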

How the results depend on the processing

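Among the members, 1 was called in RNA, 2 with no filter on low counts, 2 under the replicate block, 2 with DESeq2, 0 with GC offsets and 0 with the block and GC offsets together, and leaving out a pool gave 0 to 3. In footprints 0 were called, 1 with no filter, 4 with DESeq2 and 0 to 4 without a pool, the highest count being without mutant pool 2. In efficiency 0 were called and 3 under the replicate block. In the 5′ UTR test 2 were called, 1 under the replicate block and 0 to 10 without a pool, again highest without mutant pool 2. Without that pool 11.2% of all genes were called in RNA, 17.1% in footprints and 27.7% in the 5′ UTR test. The count of members at 30 CPM per kb was 19, and 22 as TPM. Changes reversed for Adam10 footprints (0.0356 with GC offsets and 0.0344 with the block too), Numbl footprints (-0.0387 with GC offsets and -0.0369 with the block too) and Dll4 RNA (-0.0004 without mutant pool 1, and up to 0.302 without other pools); the cause was not tested. Maml1 footprints changed by 0.59 with all lanes summed, where some lanes hold counts of few chromosomes. Over all genes RNA had 52 calls, 394 with DESeq2, 462 with no filter, 196 under the block and 2 with GC offsets, and footprints 34, 820 with DESeq2, 243 with no filter and 38 under the block. Mutant and wild-type pools of the same number did not deviate together (correlations of 0.211, 0.0485 and -0.227 in RNA and -0.149, -0.218 and -0.371 in footprints), so the block between genotypes rests on the number alone. Rbpj, Hes3, Aph1a, Psen2 and Hey2 had too few counts to show small changes.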
